A study of Mus musculus with 6 samples.

Results

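Pericentral and Wnt target hepatocyte genes were followed in liver RNA of *Mttp-IKO* and control mice as 10 genes named by symbol: Glul, Oat, Slc1a2, Rhbg, Cyp2e1, Cyp1a2, Axin2, Lgr5, Tbx3 and Rnf43. Symbols selected 9 of the 10 among the 40481 genes of the deposited table that carries symbols. Rhbg has no symbol there. It was found among the 41388 genes of the single-pool count tables under the identifier ENSMUSG00000001417, whose model on the minus strand of chromosome 3 (88242874 to 88287210, GRCm38) holds 12 exons, of which 10 are identical to the 10 exons of Rhbg in the GENCODE M21 annotation of the same build. These 10 exons make up 1937 of the 2271 nt of the model (85.3%), and the other 2 lie upstream of Rhbg. All 10 genes had enough reads to be tested.

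Both genotypes were male C57BL/6 littermates carrying floxed Mttp alleles and the Villin Cre ER T2 transgene, in which the Villin promoter drives a tamoxifen-inducible Cre in the intestinal epithelium. *Mttp-IKO* mice received tamoxifen for 5 days and control mice, called wild type in the labels, received vehicle, so tamoxifen itself and the deletion of Mttp cannot be told apart. At 12 to 16 weeks of age, and 3 weeks after the injections, both were fed a methionine- and choline-deficient (MCD) diet for 3 weeks, and tissues were taken after a fast of at least 4 h. Liver RNA was sequenced from 3 pools per genotype, each of 3 to 4 mice, and a pool is therefore the replicate, with a smaller spread than single mice would have. The pools held 25271585 to 36238734 reads on genes. Mttp encodes microsomal triglyceride transfer protein, which loads lipid onto apoB in intestine and liver. Because Cre acts in the intestine, liver Mttp does not check the labels, and it measured 90.4, 186 and 175 CPM (read counts scaled to a common library total) in the control pools against 145, 129 and 161 CPM in *Mttp-IKO* pools.

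Hepatocytes differ along the path of blood from the portal vein to the central vein. Endothelial cells of the central vein secrete Wnt ligands and R-spondin 3, which stabilize beta-catenin in the neighboring hepatocytes, and beta-catenin then acts with TCF/LEF factors on pericentral genes. The hepatocytes next to the central vein take up ammonia and glutamate and make glutamine, and a broader pericentral zone carries out P450 metabolism, while urea synthesis and gluconeogenesis are mostly periportal. Glul (glutamine synthetase), Oat (ornithine aminotransferase), Slc1a2 (the glutamate transporter GLT-1) and Rhbg (an ammonia transporter) belong to the innermost layer. Cyp2e1 and Cyp1a2 are P450 enzymes of the broader zone, and Axin2, Lgr5, Tbx3 and Rnf43 are used as Wnt targets, in which Axin2 and Rnf43 act back on the pathway as inhibitors, Lgr5 is an R-spondin receptor and Tbx3 a transcription factor.

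The 250 bases before the start of transcription are shown for the 4 genes with the highest levels, because their levels are set against each other within pools in the comparisons that follow. They were read from RefSeq on GRCm38.p6 in the direction of transcription, and capitals mark the letters CTTTGA or CTTTGT of a TCF/LEF motif on either strand (TCAAAG is CTTTGA read on the other strand).
Glul, chr1:153899679-153899928, plus strand: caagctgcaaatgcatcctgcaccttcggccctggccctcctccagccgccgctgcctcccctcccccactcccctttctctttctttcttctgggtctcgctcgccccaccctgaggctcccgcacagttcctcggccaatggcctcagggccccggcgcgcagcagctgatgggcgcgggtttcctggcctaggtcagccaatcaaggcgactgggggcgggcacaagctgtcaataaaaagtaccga
Oat, chr7:132576399-132576648, minus strand: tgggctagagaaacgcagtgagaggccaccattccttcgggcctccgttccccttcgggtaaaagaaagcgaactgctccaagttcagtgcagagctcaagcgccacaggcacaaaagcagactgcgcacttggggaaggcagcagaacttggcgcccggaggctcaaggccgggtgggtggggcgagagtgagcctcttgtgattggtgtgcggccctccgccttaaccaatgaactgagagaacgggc
Cyp2e1, chr7:140763569-140763818, plus strand: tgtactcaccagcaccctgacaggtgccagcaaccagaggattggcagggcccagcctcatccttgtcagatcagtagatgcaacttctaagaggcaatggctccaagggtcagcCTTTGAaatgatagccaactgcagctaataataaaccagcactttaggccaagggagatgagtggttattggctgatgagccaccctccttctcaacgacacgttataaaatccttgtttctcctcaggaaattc
Cyp1a2, chr9:57683656-57683905, minus strand: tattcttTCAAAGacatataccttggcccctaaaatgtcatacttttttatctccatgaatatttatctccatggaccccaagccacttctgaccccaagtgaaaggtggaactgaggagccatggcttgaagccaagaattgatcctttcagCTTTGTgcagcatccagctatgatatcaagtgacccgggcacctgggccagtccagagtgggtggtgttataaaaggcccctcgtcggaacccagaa

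The TCF/LEF letters were present once in the Cyp2e1 window, 135 to 130 bases before the start, and at 2 places in the Cyp1a2 window, 243 to 238 and 97 to 92 bases before it. They were absent from the Glul and Oat windows. Of 32851 promoter windows of the same length in RefSeq, 27.6% held at least 1 such match, so a match is common. Of the members, 7 had an entry, and among the other 3 of these Slc1a2 held 2 matches, while Axin2 and Rnf43 held none. The letters TATAAA lie in the Cyp2e1 and Cyp1a2 windows, beginning 31 and 29 bases before the start, and 12.4% of all windows hold them on either strand. The core letters GCGTG, which the aryl hydrocarbon receptor recognizes, were in none of the 4 windows printed and in 28.2% of all windows. These matches describe letters in a short window and say nothing of distant elements.

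Levels of the 10 genes differed widely per length of transcript. In RPKM, which is the CPM per kilobase of gene length, the mean level over the 6 pools was 2375 for Cyp2e1, 275 for Glul, 193 for Oat, 158 for Cyp1a2 and 16.03 for Slc1a2. It was 8.47 for Rhbg, 6.04 for Tbx3, 5.52 for Rnf43, 3.30 for Axin2 and 0.626 for Lgr5. Cyp2e1 stood above Glul, and Glul above Oat, in 6 of 6 pools. Oat exceeded Cyp1a2 in 4 of 6 pools and Tbx3 exceeded Rnf43 in 4 of 6, so these neighbors in the order did not separate beyond their spread. Rhbg exceeded Tbx3 in 3 of 6, which were the control pools, and lay below it in every *Mttp-IKO* pool. The deposited length of Slc1a2 is 13133 nt and that of Lgr5 10264 nt, which enters these levels as a divisor. Lgr5 was read least, with 111 to 348 reads per pool, far above the 3 reads that a count of 0 allows.

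**Figure D1:**
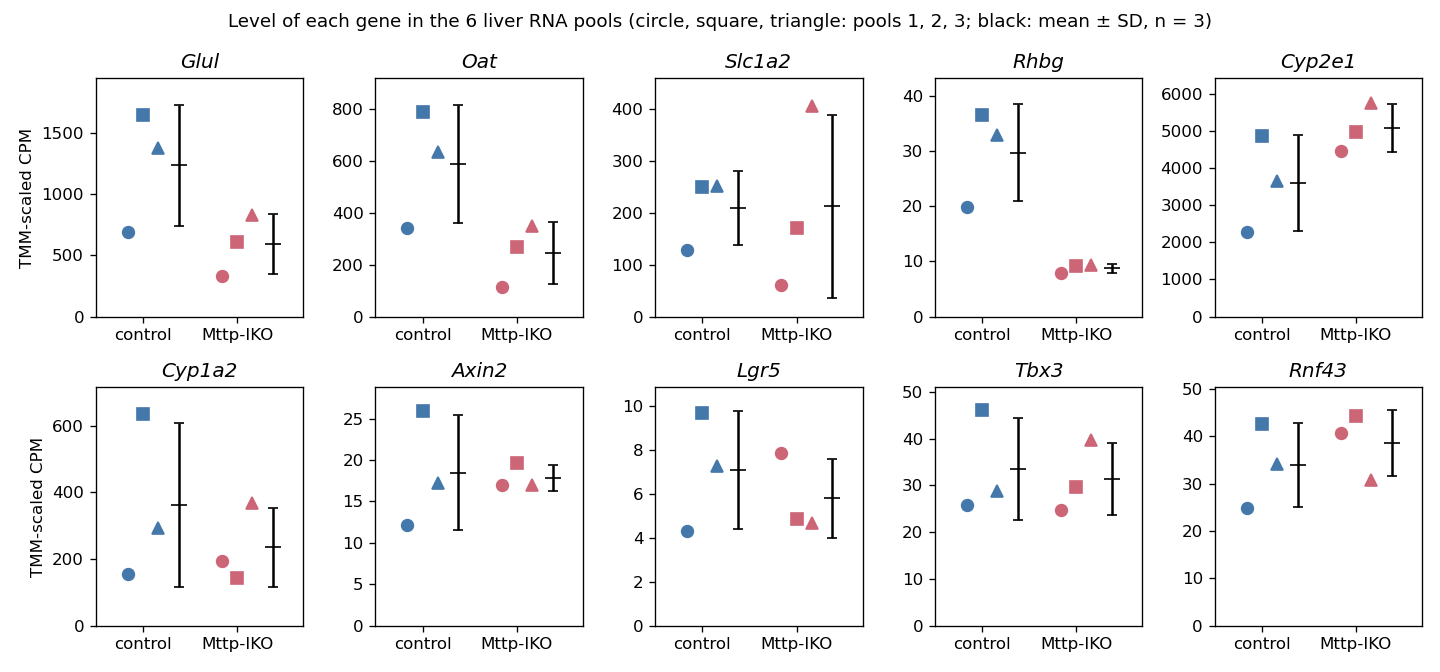
TMM-scaled CPM (linear axis from 0) of each of the 10 genes in the 3 control pools (blue) and 3 *Mttp-IKO* pools (red); circles, squares and triangles are pools 1, 2 and 3, and black bars are the mean ± SD (n = 3). The pools of the genotypes are separate for Rhbg, with all 3 *Mttp-IKO* pools under 10 CPM, and overlap for the other 9 genes.

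Rhbg was the only member that changed by the test used. Rhbg, which moves ammonia and ammonium across the membrane of the innermost hepatocytes, measured 19.9, 36.5 and 32.9 CPM in the control pools 1, 2 and 3 against 7.83, 9.09 and 9.31 CPM in *Mttp-IKO* pools 1, 2 and 3. Every *Mttp-IKO* pool was thus lower than every control pool, and the *Mttp-IKO* pools lay close together. The mean fell from 29.7 ± 8.74 to 8.74 ± 0.797 CPM (SD, n = 3 pools each), a log2 fold change of -1.77 (SE 0.244, 95% interval -2.33 to -1.20, edgeR adjusted p = 0.0181), that is 3.40-fold lower. Of all 17287 genes tested, 4.01% were called in either direction, 3.09% lower and 0.920% higher, against 1 of the 10 members. Groups that did not overlap were found in 31.0% of all genes and in 1 of 10 members. The direction was the same without any 1 pool, with log2 fold changes of -2.01 to -1.61. The edgeR adjusted p was above the threshold of 0.05 without control pool 3 (0.0743), without *Mttp-IKO* pool 1 (0.0613) and without *Mttp-IKO* pool 2 (0.0998). The value rests on the model described above, which shares 113 nt with Tsacc, a gene with 120 reads over all pools.

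Glul and Oat, the enzymes that make glutamine and that feed it with glutamate from ornithine, followed the same order of pools. Glul measured 686, 1643 and 1377 CPM in the control pools 1 to 3 against 334, 611 and 825 CPM in *Mttp-IKO* pools 1 to 3. Control pool 1 lay below *Mttp-IKO* pool 3, so the genotypes overlapped by that pair of pools, and the other control pools were above all *Mttp-IKO* pools. The means were 1236 ± 494 and 590.2 ± 246 CPM (SD, n = 3), and the log2 fold change of -1.07 (SE 0.408, 95% interval -2.004 to -0.13) did not pass the adjustment over all genes (edgeR adjusted p = 0.172).

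Oat measured 339, 789 and 633 CPM in the control pools against 114, 269.5 and 348 CPM in *Mttp-IKO* pools. The order of the pools was that of Glul, again with *Mttp-IKO* pool 3 just above control pool 1. The means were 587 ± 228 and 244 ± 119 CPM (SD, n = 3), with a log2 fold change of -1.27 (SE 0.442, 95% interval -2.28 to -0.25, edgeR adjusted p = 0.143). Oat passed with DESeq2's Wald test in place of edgeR (adjusted p = 0.0310), by which 1995 genes were called in all. Glul and Oat had log2 fold changes below 0 in each of the 17 alternative settings, at -1.38 to -0.78 and -1.61 to -0.93.

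Slc1a2, which imports the glutamate that glutamine synthetase uses, had no common direction in the *Mttp-IKO* pools. It measured 127, 249 and 251 CPM in the control pools against 60.7, 169 and 406 CPM in *Mttp-IKO* pools. The lowest and the highest of the 6 values were both *Mttp-IKO* pools, and their coefficient of variation was 83.2%, against 33.9% in control pools. The log2 fold change was 0.02 with a 95% interval of -1.35 to 1.38 (edgeR adjusted p = 0.989), which leaves room for a change of more than 2-fold either way. Without *Mttp-IKO* pool 3 the log2 fold change was -0.86 (edgeR adjusted p = 0.293). In that pool small RNAs took 0.290% of the reads, against 2.13% and 1.92% in *Mttp-IKO* pools 1 and 2. Control pools held 2.75% to 3.51%, so every *Mttp-IKO* pool was below every control pool. The part of this difference in the values of Slc1a2 and of the other genes was not tested.

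**Figure D2:**
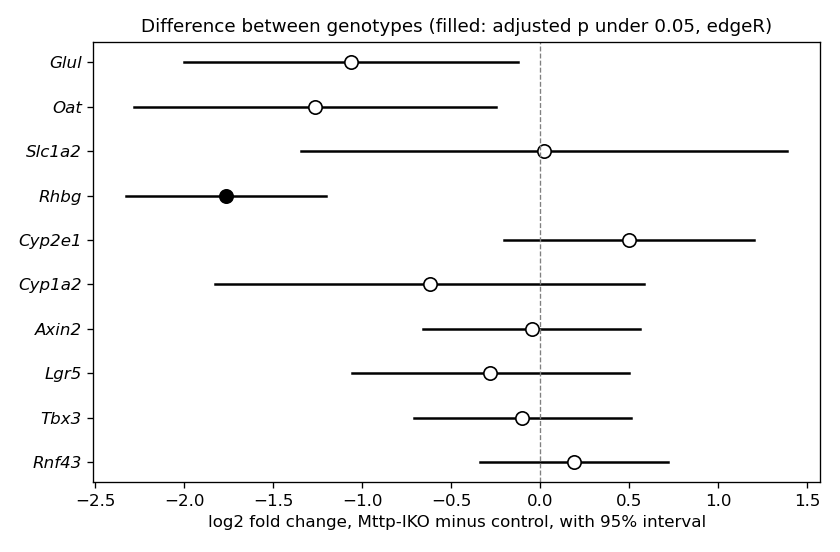
Log2 fold change of each gene, *Mttp-IKO* minus control, with its 95% interval (horizontal line) from edgeR's quasi-likelihood fit over all genes; a filled circle marks an adjusted p under 0.05. Rhbg is filled at -1.77, the intervals of Glul and Oat also lie below 0 without passing the adjustment, and those of the other 7 genes cross 0.

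The P450 genes of the broader zone did not share a direction. Cyp2e1, which oxidizes ethanol, acetone and many solvents, measured 2272, 4879 and 3646 CPM in the control pools against 4476, 4989 and 5774 CPM in *Mttp-IKO* pools. Control pool 2 lay among the *Mttp-IKO* pools, and the other control pools lay below them. The means were 3599 ± 1304 and 5079.5 ± 654 CPM (SD, n = 3), with a log2 fold change of 0.50 (SE 0.305, 95% interval -0.20 to 1.20, edgeR adjusted p = 0.368). Its mean RPKM placed it at rank 21 of the genes tested.

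Cyp1a2, which metabolizes caffeine and arylamines and responds to the aryl hydrocarbon receptor, measured 156, 636 and 293 CPM in the control pools against 194, 143 and 368 CPM in *Mttp-IKO* pools. Control pool 2 stood apart above the other 5, and with it the coefficient of variation in control pools was 68.3%, the highest of the 10 genes. The log2 fold change was -0.62 (SE 0.523, 95% interval -1.83 to 0.58, edgeR adjusted p = 0.514) and became 0.04 without control pool 2.

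The 4 Wnt targets gave small differences with intervals on both sides of 0. Axin2, the feedback scaffold that promotes destruction of beta-catenin, measured 12.2, 25.9 and 17.3 CPM in the control pools against 17.0, 19.6 and 16.9 CPM in *Mttp-IKO* pools. The *Mttp-IKO* pools lay within the range of the control pools. The log2 fold change was -0.05 (SE 0.265, 95% interval -0.66 to 0.56, edgeR adjusted p = 0.933).

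Lgr5, which marks the pericentral hepatocytes that receive the strongest Wnt and R-spondin signal, measured 4.29, 9.65 and 7.25 CPM in the control pools against 7.87, 4.87 and 4.66 CPM in *Mttp-IKO* pools. Again all *Mttp-IKO* values lay between the lowest and the highest control value. The log2 fold change was -0.28 (SE 0.338, 95% interval -1.06 to 0.50, edgeR adjusted p = 0.657).

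Tbx3, a T-box repressor, measured 25.8, 45.997 and 28.8 CPM in the control pools against 24.6, 29.6 and 39.7 CPM in *Mttp-IKO* pools, a log2 fold change of -0.10 (SE 0.264, 95% interval -0.71 to 0.51, edgeR adjusted p = 0.853). Rnf43, a ubiquitin ligase that removes Frizzled receptors, measured 24.8, 42.6 and 34.2 CPM in the control pools against 40.7, 44.2 and 30.7 CPM in *Mttp-IKO* pools, a log2 fold change of 0.19 (SE 0.230, 95% interval -0.34 to 0.72, edgeR adjusted p = 0.664). Both genes overlapped between genotypes. Antisense genes lie opposite exons of Slc1a2, Axin2 and Tbx3, and held 268, 53 and 12 reads over all pools. Teddm2, with 737 reads, shares 116 exonic bases with Glul on the opposite strand. Whether the counting used strand is not stated. Ambiguous reads were not counted, so these numbers do not show how many reads the members may have lost.

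Over the 10 members, 7 had a log2 fold change below 0 and 3 above 0, with a median of -0.19 against 0.01 over all genes tested. At an unadjusted p under 0.05 (edgeR) there were 3 of 10 members, Rhbg, Oat and Glul, against 23.0% of all genes tested (3977 of 17287), a share near this background. The 10 genes were not independent of each other, since the same pools were high or low for many of them.

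Control pool 1 was the lowest of the control pools for 10 of 10 members. Over all genes tested it was lowest for 36.8%. Control pool 2 was the highest for 9 of 10 members, with Slc1a2 as the exception, against 37.7% of all genes, and it exceeded control pool 1 by 1.71-fold to 4.07-fold. Each value in this ordering comes from the same 3 pools, so the genes are not separate evidence of it. The wider list of 21 pericentral genes showed the order too, with control pool 1 lowest for 18 and control pool 2 highest for 18. Summed markers of hepatocytes (7 measured genes, among them Alb and Ahsg) had the same order in control pools, at 71558, 107021 and 86397 CPM, and read 126765 to 179651 CPM in *Mttp-IKO* pools. Such a sum is weighted toward the most abundant genes, such as Alb. Gene by gene, control pool 1 was lowest for 5 of the 7 and control pool 2 highest for 6. The log2 fold change was above 0 for 5 of the 7 and below 0 for 2. Summed markers of stellate cells (7 genes) ran the opposite way, at 1128, 741 and 1014 CPM in control pools and 445 to 499.6 CPM in *Mttp-IKO* pools. Striated muscle genes (6 genes) summed to 72.6, 600 and 1.06 CPM in control pools and to at most 1.10 CPM in *Mttp-IKO* pools. Without control pool 2, which held the most striated muscle RNA, the log2 fold change of Rhbg was -1.61 (edgeR adjusted p = 0.0180). Control pool 1, at 72.6 CPM of these genes, stayed in that fit. Without control pool 3, at 1.06 CPM, the log2 fold change of Rhbg was -1.71 (edgeR adjusted p = 0.0743). The part of these other cells in the member values was not tested, and in RNA of whole liver fewer cells of a type and less RNA per cell cannot be told apart.

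**Figure D3:**
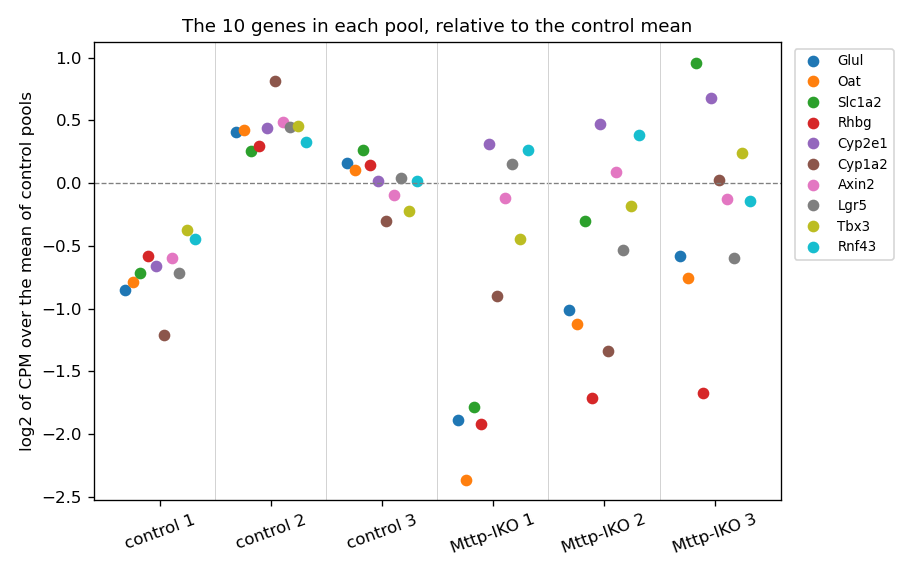
Log2 of each gene's CPM over its mean in control pools, for each of the 6 pools; colors are the 10 genes and the dashed line is the control mean. All 10 genes lie below the line in control pool 1, and in all 3 *Mttp-IKO* pools Rhbg, Oat and Glul lie below it and Cyp2e1 above it.

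Because control pools moved up and down together, levels were also set against each other within a pool, a ratio that no scaling of the libraries changes. Glul amounted to 30.2%, 33.7% and 37.8% of Cyp2e1 CPM in control pools and to 7.46%, 12.3% and 14.3% in *Mttp-IKO* pools. The 2 genotypes did not overlap in this ratio, and its mean was 2.99-fold higher in control pools. Oat amounted to 14.9%, 16.2% and 17.4% of Cyp2e1 CPM in control pools and to 2.55%, 5.40% and 6.03% in *Mttp-IKO* pools, with no overlap either. Rhbg stood at 0.874%, 0.748% and 0.901% of Cyp2e1 CPM in control pools and at 0.175%, 0.182% and 0.161% in *Mttp-IKO* pools. These ratios were chosen after their values were seen and carry no test. Over all other genes detected in every pool, 24.0% had a ratio to Cyp2e1 that was lower in every *Mttp-IKO* pool than in every control pool, so a lower ratio to Cyp2e1 was common.

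Taking every pair of members, the ratio did not overlap between genotypes in 21 of 45 pairs, against 29.9% of all pairs of tested genes. Leaving out Rhbg it was 15 of 36 pairs. The pairs share genes and pools, with Oat and Cyp2e1 in 7 of the 21 each, so they are not separate observations and the shares were not tested. Glul against Axin2, Tbx3 and Rnf43 was lower in *Mttp-IKO* pools without overlap, as was Oat against Axin2, Lgr5, Tbx3 and Rnf43. Cyp2e1 was higher without overlap against Axin2, Lgr5, Tbx3 and Cyp1a2. None of the pairs among Axin2, Lgr5, Tbx3 and Rnf43 separated the genotypes. The Glul CPM was 202%, 208% and 218% of the Oat CPM in control pools and 293%, 227% and 237% in *Mttp-IKO* pools, which places the *Mttp-IKO* values higher, 2 of the 3 by a small margin.

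**Figure D4:**
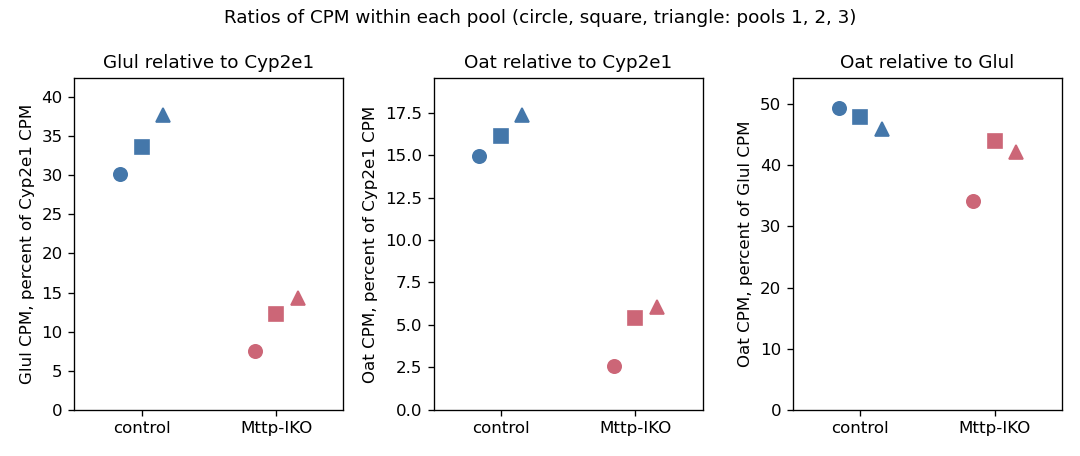
CPM of one gene as a percentage of that of another within each pool (linear axes from 0), for Glul over Cyp2e1, Oat over Cyp2e1 and Oat over Glul; blue is control, red is *Mttp-IKO*, and circles, squares and triangles are pools 1, 2 and 3. Both ratios to Cyp2e1 are separate, with *Mttp-IKO* pools at or under 14.3% for Glul and 6.03% for Oat, while Oat over Glul separates by a narrow gap.

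Genes whose levels followed a member most closely were sought among 12594 genes over the 6 pools, by Pearson's r of log2 CPM, as a description in which the pools of both genotypes enter. For Glul they were Fads3, with an r of 0.992, Oat with 0.991 and Mcm10 with 0.980. For Cyp2e1 they were Enpep with 0.994, Hp1bp3 with 0.991 and Iqgap2 with 0.990. With 6 pools and this many genes, values this close to 1 are found by the search itself.

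The wider Wnt pathway was read from lists of its ligands, receptors, core, inhibitors and further targets. Among 10 further targets and feedback genes, 0 passed in edgeR, and the median log2 fold change was -0.16. At an unadjusted p under 0.05 there were 4 of the 10, and the counts at that level given here and for the following lists stand against the same 23.0% of all genes. DESeq2 called 1 of them, the receptor Tnfrsf19, and limma-voom called 0. Over all 17287 genes tested, DESeq2 called 1995 and limma-voom 428. The calls by these tools given here and for the following lists stand against those counts. Cyclin D1 (Ccnd1), the most abundant of them per length, measured 237, 226 and 239 CPM in the control pools against 205, 104 and 126 CPM in *Mttp-IKO* pools. Its pools did not overlap, and the log2 fold change of -0.70 (SE 0.255) had an edgeR adjusted p of 0.159. Myc, the second by level, had a log2 fold change of 0.15 (edgeR adjusted p = 0.783). Chosen after their values were seen, Tnfrsf19 had a log2 fold change of -1.37 (edgeR adjusted p = 0.0532) and Tcf7, a TCF factor that is itself a target, had 0.64 (edgeR adjusted p = 0.203), both without overlap of the pools.

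Of 14 ligands and secretion genes 11 were tested, and 0 passed in edgeR, with 3 at an unadjusted p under 0.05. limma-voom called 0 and DESeq2 called 3, namely Porcn (higher) and Wls and Wnt4 (lower). Rspo3, the R-spondin of central vein endothelium, measured 8.23, 11.3 and 11.9 CPM in the control pools against 7.74, 11.4 and 7.01 CPM in *Mttp-IKO* pools. These values overlapped, with a log2 fold change of -0.26 (95% interval -0.82 to 0.30, edgeR adjusted p = 0.559). Wls, which carries Wnt proteins to the cell surface, measured 12.7, 8.82 and 13.1 CPM in the control pools against 6.42, 7.24 and 6.67 CPM in *Mttp-IKO* pools, without overlap (log2 fold change -0.77, edgeR adjusted p = 0.0761). Wnt2 and Wnt9b, ligands of hepatic endothelium chosen after their values were seen, had log2 fold changes of 0.28 and 0.43 (edgeR adjusted p = 0.583 and 0.266). Endothelial markers (8 genes) summed to 430.2 to 463 CPM in control pools and to 434 to 514 CPM in *Mttp-IKO* pools. Of the 8, 4 had a log2 fold change above 0 and 4 below. In edgeR 1 passed, Thbd, which was higher, against 4.01% of all genes. DESeq2 called it too and limma-voom did not.

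Of 17 receptors 14 were tested, and 0 passed in edgeR (2 at an unadjusted p under 0.05), 1 in DESeq2 (Fzd2, lower) and 0 in limma-voom. The co-receptor Lrp5 measured 149, 189 and 170.4 CPM in the control pools against 242, 241 and 211 CPM in *Mttp-IKO* pools, which did not overlap (log2 fold change 0.45, edgeR adjusted p = 0.162). Lrp6, its paralog, had a log2 fold change of 0.37 (edgeR adjusted p = 0.354). Of 16 core genes 0 passed in edgeR (2 unadjusted), in DESeq2 (1 unadjusted) or in limma-voom (2 unadjusted), with 12 of 16 above 0 and a median of 0.25 (10 of 16 and 0.07 when pools were scaled to their total counts). Ctnnb1, which encodes beta-catenin, measured 273, 224 and 249.5 CPM in the control pools against 223, 176 and 185 CPM in *Mttp-IKO* pools. Its pools touched without overlap at 224 and 223 CPM, and the log2 fold change was -0.35 (95% interval -0.75 to 0.05, edgeR adjusted p = 0.268). Bcl9l, a beta-catenin co-activator, had a log2 fold change of 0.30 (edgeR adjusted p = 0.445).

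Among the secreted and membrane inhibitors 6 of 13 were tested and 1 passed in edgeR. DESeq2 called 2, Dkk3 and Frzb, and limma-voom called 0, so that the call of Frzb was lost there. Frzb, a secreted Frizzled-related protein that binds Wnt ligands, measured 12.0, 5.71 and 9.62 CPM in the control pools against 3.61, 3.94 and 3.02 CPM in *Mttp-IKO* pools. It fell by 1.37 on the log2 scale (SE 0.295, edgeR adjusted p = 0.0463). The median of the list was -0.93, and 4 of the 6 had an unadjusted p under 0.05 (edgeR), against 23.0% of all genes; in limma-voom it was also 4. Dkk3 had a log2 fold change of -0.83 (edgeR adjusted p = 0.0529) and Kremen1, a Dickkopf receptor, had 0.19 (edgeR adjusted p = 0.589). Within control pools Frzb and Dkk3 were highest in pool 1 and lowest in pool 2, the order of the summed stellate cell markers. All 7 of these markers had a log2 fold change below 0. Of the 7, 4 passed in edgeR (Col1a1, Colec11, Lrat and Pdgfrb), against 4.01% of all genes. The part of stellate cells in the values of these inhibitors was not tested.

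Among 21 further pericentral genes 3 passed, in both directions, with a median of 0.01. Aldh1a1, a retinal dehydrogenase, measured 791, 983 and 915 CPM in the control pools against 382, 370.4 and 362 CPM in *Mttp-IKO* pools, and it fell by 1.27 on the log2 scale (SE 0.176, edgeR adjusted p = 0.0181). Gstm3, a glutathione transferase, measured 243, 181 and 183 CPM and 110.2, 103 and 64.4 CPM, and it fell by 1.13 on the log2 scale (SE 0.242, edgeR adjusted p = 0.0459). Cyp2c29, a P450 of the Cyp2c family, measured 32.6, 108 and 51.0 CPM in the control pools against 216, 296 and 339 CPM in *Mttp-IKO* pools, and it rose by 2.15 on the log2 scale (SE 0.423, edgeR adjusted p = 0.0370). Genotypes did not overlap for any of the 3. Of these 3, limma-voom called Aldh1a1 and Cyp2c29 but not Gstm3. Both Gstm3 and Cyp2c29 have near-identical relatives, reads of which were counted only where they fit a single place, so their values are less certain. The other 3 Cyp2c genes of the list, chosen after their values were seen, had log2 fold changes of 1.83 (Cyp2c37), 1.37 (Cyp2c50) and 2.61 (Cyp2c54) with edgeR adjusted p of 0.158, 0.230 and 0.217.

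**Figure D5:**
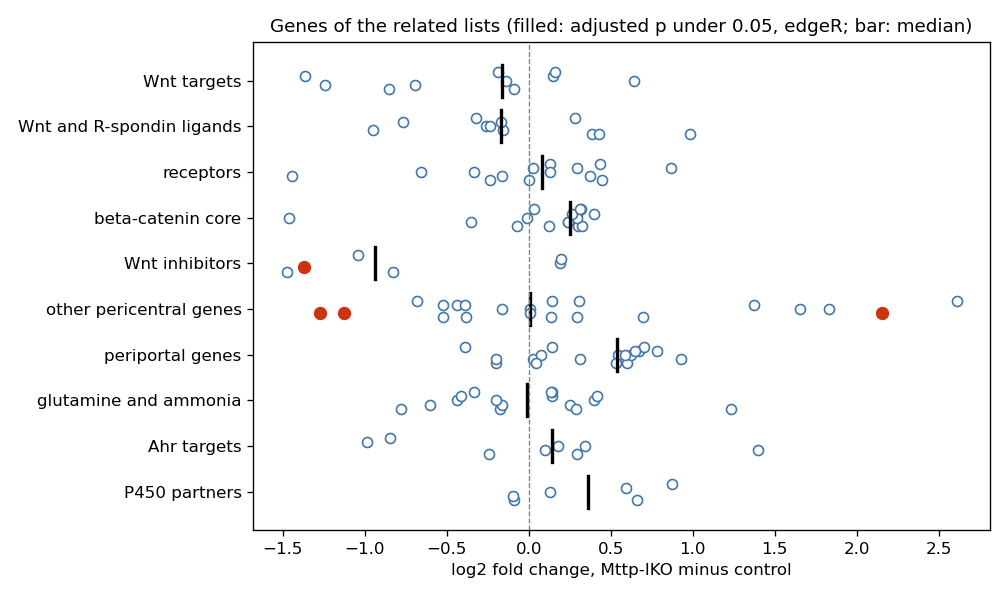
Log2 fold change, *Mttp-IKO* minus control, of the tested genes of each list related to the members; open circles did not pass, filled circles had an edgeR adjusted p under 0.05, and black bars are the medians of the lists. The filled genes are Frzb among the inhibitors and Aldh1a1, Gstm3 and Cyp2c29 among other pericentral genes, and the medians run from -0.93 for the inhibitors to 0.54 for periportal genes.

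Periportal genes were read for contrast. Of 18 tested, 15 had a log2 fold change above 0, with a median of 0.54 (11 of 18 and 0.35 when scaled to total counts), and 0 passed in edgeR (6 at an unadjusted p under 0.05), 2 in DESeq2 (Asl and Igfbp2, higher) and 0 in limma-voom. Ass1, an enzyme of the urea cycle, measured 1624, 1959 and 2049.6 CPM in the control pools against 1912, 3539.7 and 3238 CPM in *Mttp-IKO* pools. These overlapped by a single pool (log2 fold change 0.63, edgeR adjusted p = 0.220). Pck1, of gluconeogenesis, had a log2 fold change of 0.05 (edgeR adjusted p = 0.933).

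The partners of Glul, Oat, Slc1a2 and Rhbg in glutamine, glutamate, proline and ammonia handling gave a median of -0.01, with 16 of 19 tested. None passed in edgeR or limma-voom, at an unadjusted p under 0.05 there were 0 in either, and DESeq2 called 0 with 1 unadjusted. The glutamine transporter Slc38a3 measured 1159.8, 1541 and 1404 CPM in the control pools against 1169, 1490.4 and 1853 CPM in *Mttp-IKO* pools. The genotypes overlapped, with a log2 fold change of 0.14 (95% interval -0.40 to 0.68, edgeR adjusted p = 0.768). Glud1, glutamate dehydrogenase, also had a log2 fold change of 0.14 (edgeR adjusted p = 0.677). In this list 0 of the 16 tested genes had pools that did not overlap, against 31.0% of all genes tested.

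The aryl hydrocarbon receptor group, to which Cyp1a2 belongs, had 8 of 9 genes tested and a median of 0.14. In edgeR 0 passed (2 unadjusted), in limma-voom 0 (1 unadjusted), and in DESeq2 1, Tiparp. The receptor Ahr had a log2 fold change of 0.30 (edgeR adjusted p = 0.356) and its partner Arnt of 0.34 (edgeR adjusted p = 0.312). Among 6 electron donors and regulators of P450 enzymes, 0 passed in edgeR (3 unadjusted) or limma-voom (3 unadjusted), and DESeq2 called Hnf4a and Por, both higher. Por, which passes electrons to Cyp2e1 and other P450 enzymes, measured 979, 1018 and 1122 CPM in the control pools against 1173, 1809 and 1948 CPM in *Mttp-IKO* pools. Its pools did not overlap (log2 fold change 0.66, SE 0.237, edgeR adjusted p = 0.152). Cyb5a, cytochrome b5, had a log2 fold change of -0.09 (edgeR adjusted p = 0.856).

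Over the related lists together 4 of 123 tested genes passed, 1 higher and 3 lower, a share near the 4.01% of all genes. Over all genes 22.9% of the calls were higher in *Mttp-IKO* pools, and 10.99% when pools were scaled to their total counts. The count became 0 without control pool 1, control pool 3, *Mttp-IKO* pool 1 or *Mttp-IKO* pool 2 (18 to 42 at an unadjusted p under 0.05, edgeR), and it was 8 without *Mttp-IKO* pool 3. Liver identity was clear in each pool, with Alb at 40131 to 69005 CPM in control pools and 84785 to 132236 CPM in *Mttp-IKO* pools, whereas summed small intestine markers (6 genes) were at 11.3 to 42.4 CPM over the 6 pools. Kupffer cell and macrophage markers (7 genes) summed to 342 to 556 CPM in the control pools and to 226 to 375 CPM in *Mttp-IKO* pools. Of the 7, 2 had a log2 fold change above 0 and 5 below. In edgeR 2 passed, Timd4 (higher) and Cx3cr1 (lower), against 4.01% of all genes. limma-voom called only Cx3cr1, and DESeq2 called 4, of which 3 were lower. Markers of cholangiocytes (6 genes) summed to 69.8 to 195 CPM in control pools and to 49.0 to 94.4 CPM in *Mttp-IKO* pools. Those of B and T cells (4 genes) summed to 3.85 to 4.98 and to 1.38 to 2.90 CPM.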

How the data were processed

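Liver RNA of 3 control and 3 *Mttp-IKO* pools was measured by RNA-Seq after depletion of ribosomal RNA. The authors deposited raw read counts per gene, as uniquely aligned, unambiguous reads counted by featureCounts (1.4.6-p5) after alignment with STAR (2.5.1a) to GRCm38 with Ensembl release 76. The CPM and RPKM columns that the authors deposited beside them follow from the counts and were not tested. A deposited table with symbols holds the same counts for 40481 genes after 276 repeated lines were dropped, and 907 genes, Rhbg among them, are only in the tables of single pools. Whether strand was used is not given in the sources used here.

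Pools were assigned to genotypes by their labels. Genes were kept by edgeR's filterByExpr at a minimum count of 10 and a minimum total of 15, and 17287 genes passed. TMM factors were 0.898 to 1.11. The test was the quasi-likelihood F test of edgeR 4.0.16 in R 4.3.3 (glmQLFit, then glmQLFTest), p-values were adjusted by Benjamini-Hochberg over all genes tested, and the threshold was 0.05. CPM and RPKM in the text were computed here with TMM scaling, and intervals are at 95%. Pools held 25271585 to 36238734 reads on genes, so that a count of 0 allows up to 3 reads, or 0.0828 to 0.119 CPM, a limit for counting error alone. Every pair of pools differed by more than sampling noise. With 3 pools a side the smallest two-sided p of an exact permutation test is 0.1. The test was tried on simulated counts.

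The members and lists were chosen with earlier results of these data known. All members are named, with the called genes of each pathway list (up to 4) or, where fewer than 2 passed, the 2 highest by mean RPKM, the 2 highest markers of a cell type and any set beside a member, and the 3 genes most like Glul and Cyp2e1 among genes with an average log2 CPM of at least 1 (those for Axin2 are not reported here). Alternatives were 3 other scalings, DESeq2 1.42.0, limma-voom (limma 3.58.1), other filters, robust dispersion, removal of the trend with gene length, the replicate number as a block, and leaving out each pool. Promoter sequences came from RefSeq on GRCm38.p6, and exons from GENCODE M21. Figures were drawn with matplotlib 3.10.9.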

Additional observations from a re-analysis of the deposited data

How the results depend on the processing

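Of the members, Glul, Oat, Rhbg, Cyp2e1 and Lgr5 had the same direction in all 17 alternatives. For Lgr5 that direction was all but lost without control pool 2, at a log2 fold change of -0.0026. The number of genes called was 694 and became 1995 with DESeq2's Wald test and 428 with limma-voom, and it ranged from 0 (without *Mttp-IKO* pool 2, with 3221 genes at an unadjusted p under 0.05 in edgeR) to 892 with 1 pool left out. The count of members called was 1 and became 2 with DESeq2's Wald test and 2 with the replicate block, Oat being added in both, and it ranged from 0 to 1 with 1 pool left out. The count of other listed genes called was 4 and became 10 with total counts, 17 with DESeq2's Wald test, 2 with limma-voom and 7 with the length trend removed, and it ranged from 0 to 8 with 1 pool left out. The cause was not tested, though leaving out a pool leaves fewer samples. Scaling to total counts moved the median log2 fold change of all genes from 0.01 to -0.17.

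Directions turned for uncalled members only. Slc1a2, at 0.02, became -0.015 with upper quartile scaling, -0.16 with total counts, -0.30 with limma-voom, -0.023 with no filter, -0.32 with the replicate block and -0.20 with the length trend removed. Axin2, at -0.05, became 0.022 with limma-voom and 0.013 with the replicate block. With 1 pool left out, Slc1a2 ranged from -0.86 to 0.46 (below 0 without control pool 1 or *Mttp-IKO* pool 3), Axin2 from -0.30 to 0.26 (above 0 without control pool 2), Rnf43 from -0.013 to 0.37 (below 0 without control pool 1), Cyp1a2 from -1.10 to 0.041 (above 0 without control pool 2) and Tbx3 from -0.31 to 0.17 (above 0 without control pool 2 or *Mttp-IKO* pool 1).

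Pools share only a number between genotypes, since the labels do not pair them and the deviations of equally numbered pools correlated at 0.19, 0.15 and 0.02. Every pool correlated best with its own number, a hint from the data and not the design. With the replicate number as a block, 592 genes were called, and the edgeR adjusted p of Oat was 0.0369.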
